A study of Mus musculus with 12 samples.

Results

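A set of 10 genes used as markers of metaplasia and of pancreatic intraepithelial neoplasia (PanIN), the microscopic precursor of pancreatic cancer, was described in whole mouse pancreas. They were chosen by name, with the row of highest mean for each gene, as Muc1, Muc5ac, Cldn4, Cldn18, Mmp7, Cd44, Anxa2, Prom1, Dclk1 and Tff1, which makes 10 of the 30142 genes measured. Each gene had 1 row annotated to it alone. The study profiled 12 pancreas samples from mice aged 6 months, with 1 Affymetrix expression array per sample. The 6 control samples had the genotype Pdx1/Cre, and the 6 HuR samples had the genotype Pdx1/Cre + Traffic-HuR, so Cre was present in both groups. The Pdx1 promoter is active in the early pancreatic epithelium, from which acinar, duct and islet cells all derive. HuR, the product of Elavl1, binds AU-rich stretches of messages and is known for stabilising them. Nothing in the labels names a tumour or PanIN lesion in any sample, and whether each sample is a mouse of its own is not stated. The p-values therefore measure the spread between these arrays, whose number limits the precision.

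In acinar-to-ductal metaplasia, acinar cells lose enzyme expression and take on features of duct cells. PanIN cells often resemble the surface cells of the stomach, and their mucin, trefoil peptide and claudin genes are used to recognise them. Other markers of the set come from the invasive edge and the wound response (Mmp7, Cd44, Anxa2) or from stem-like and tuft-like cells (Prom1, Dclk1). Several of them are also expressed by cells that are not epithelial.

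Expression is given as log2 values, means are followed by the SD over the arrays, and a difference is HuR minus control with its standard error (SE). A row is called low here when its mean over the 12 arrays is at or under 4.516, the median of all rows. Many rows have no gene name, and 18029 of the 30142 genes lay above that level. The 23 background rows of the arrays had a median of 3.74 and row means from 3.11 to 6.01, so a level within that range does not show that the message was present. That limit applies to every gene named below, also where it is not repeated. Elavl1 was at 5.99 ± 0.12 in control and 6.23 ± 0.14 in HuR arrays (SD, n = 6 each), with p = 0.0108 by a two-sided exact permutation test and a limma adjusted p of 0.878. The acinar enzyme genes Cpa1, Cel and Cela1 stood at 19.93, the end of the scale, in all 12 arrays. Replicate 2 of each group stood apart, with the lowest median correlation to the other arrays (0.9894 in the controls and 0.9803 in HuR), so each marker is given with and without both of these arrays.

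Mmp7 was the only marker whose genotypes did not overlap. It encodes matrilysin, a secreted protease of epithelial cells that is found in metaplastic ducts and PanIN. The values ran from 4.20 over a median of 4.37 to 4.53 in the controls, and from 4.64 over a median of 4.71 to 6.77 in the HuR samples. All 6 HuR arrays lay above every control array, but only HuR replicate 2 lay far above, and the highest value of the other 5 HuR arrays was 4.84. The means of 4.38 ± 0.12 and 5.06 ± 0.84 (SD, n = 6 each) differed by 0.67 (SE 0.322), or 1.59-fold, and the 95% interval ran from -0.03 to 1.38. An exact two-sided permutation test gave p = 0.00216, the smallest that 924 assignments can give, while limma, adjusted over all genes, gave 0.905. Genotypes that did not overlap were found in 0.299% of all genes, and in 0.166% with HuR higher.

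Without both replicate 2 arrays Mmp7 was at 4.38 ± 0.13 (SD, n = 5) against 4.71 ± 0.08 (SD, n = 5). That difference of 0.33 (SE 0.0695), with an interval from 0.17 to 0.48, is 1.25-fold. The genotypes still did not overlap, which held for 1.32% of all genes in those 10 arrays, and for 0.727% with HuR higher. The exact permutation p was 0.00794, again the smallest possible there, and the limma adjusted p was 0.506. Mmp7 lay above the median row in 6 of 6 HuR arrays and 1 of 6 control arrays, and its values lay within the range of the background rows except in HuR replicate 2.

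The stretch before the Mmp7 start site is shown because Mmp7 was the marker that separated the genotypes, and the same stretch of Muc1, the marker with the lowest difference, is shown beside it. Both are the 250 bases before the start, 5′ to 3′ on the plus strand, from RefSeq on GRCm38.p6, at chr9:7691840-7692089 for Mmp7 and chr3:89228806-89229055 for Muc1. Capitals mark 2 motifs searched on both strands, the AP-1 consensus TGAGTCA and the letters of the TATA box, TATAAA, each also as its reverse complement.
Mmp7: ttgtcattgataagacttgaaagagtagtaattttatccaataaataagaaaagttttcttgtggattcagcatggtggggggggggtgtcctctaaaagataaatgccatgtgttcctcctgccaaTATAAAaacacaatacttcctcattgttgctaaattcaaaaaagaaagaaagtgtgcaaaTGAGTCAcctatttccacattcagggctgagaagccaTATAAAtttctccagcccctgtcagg
Muc1: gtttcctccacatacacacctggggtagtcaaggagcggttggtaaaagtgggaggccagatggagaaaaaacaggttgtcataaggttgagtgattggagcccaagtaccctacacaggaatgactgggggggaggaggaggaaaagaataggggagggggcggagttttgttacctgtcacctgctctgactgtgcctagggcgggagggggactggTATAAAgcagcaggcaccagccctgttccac
The Mmp7 stretch held TGAGTCA starting 63 bases before the start site and TATAAA starting 123 and 26 bases before it, with no overlap between them. The Muc1 stretch held TATAAA starting 31 bases before its start and no TGAGTCA. Over all 32536 distinct stretches of this length, 4.45% held the AP-1 letters and 12.3% the TATA letters. Of the 10 markers, 8 had a stretch in the RefSeq table, with 12 stretches between them. The AP-1 letters were in 5 of the 12 stretches, 1 each of Mmp7, Cldn4, Anxa2, Prom1 and Dclk1. The TATA letters were in 3 of the 12, 1 each of Mmp7, Anxa2 and Muc1. These counts were not tested. For Dclk1 the AP-1 letters were only in the stretch of its second start. A match of letters describes the sequence and says nothing about binding.

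**Figure D1:**
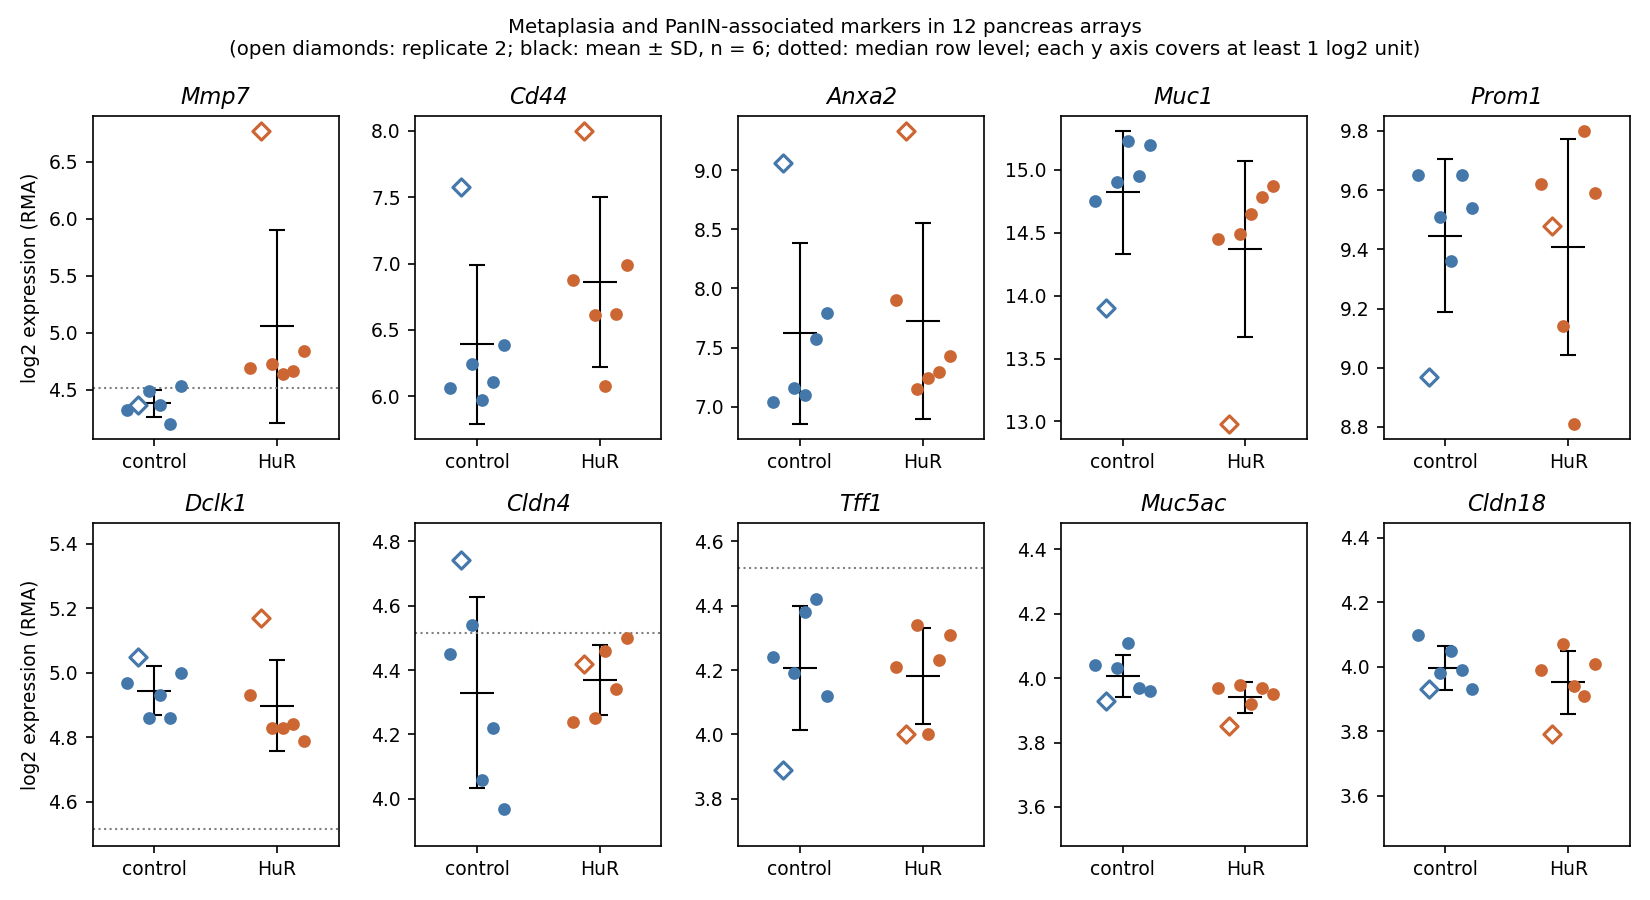
Log2 expression of the 10 markers on each array, control in blue and HuR in orange, with replicate 2 as an open diamond, the mean ± SD (n = 6) in black and the median row level of 4.516 dotted where it falls on the axis. Mmp7 separates the genotypes, Cd44 and Anxa2 are highest and Muc1 is lowest in the replicate 2 arrays of both groups, and the other markers overlap.

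Cd44, the hyaluronan receptor that marks many epithelial, immune and mesenchymal cells and is used as a marker of injured and metaplastic epithelium, was higher on average in HuR. It ran from 5.97 over a median of 6.18 to 7.58 in the controls and from 6.08 over a median of 6.75 to 8.00 in HuR. Of the HuR arrays, 5 of 6 lay above the control median, but only replicate 2 lay above the highest control, which was control replicate 2. The means of 6.39 ± 0.60 and 6.86 ± 0.64 (SD, n = 6 each) differed by 0.47 (SE 0.332), with an interval from -0.25 to 1.19. The exact two-sided permutation p was 0.229 and the limma adjusted p 0.923. Without both replicate 2 arrays the spread was smaller, at 6.15 ± 0.16 and 6.64 ± 0.35 (SD, n = 5 each). The difference was then 0.48 (SE 0.161), or 1.4-fold, with an exact permutation p of 0.0317 and a limma adjusted p of 0.666. Leaving out HuR replicate 2 alone gave 0.243, and leaving out control replicate 2 alone gave 0.709.

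Anxa2, a calcium-dependent membrane-binding protein of duct, mesenchymal and mesothelial cells, had the largest SD of the markers over the 12 arrays, though not without both replicate 2 arrays, where Cd44 had it, and its genotypes differed by less than that spread. The controls ran from 7.04 over a median of 7.37 to 9.06, and the HuR samples from 7.15 over a median of 7.36 to 9.33. In each group replicate 2 was highest, and the other arrays of the 2 genotypes overlapped. Its genotypes differed by 0.10 (SE 0.426), with an interval from -0.83 to 1.03. The limma adjusted p was 0.991 and that of the exact permutation test 0.753. Leaving out both replicate 2 arrays gave 0.07 (SE 0.183), with an interval from -0.34 to 0.48, and leaving out HuR replicate 2 alone gave -0.22.

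Muc1, the transmembrane mucin of the apical surface of exocrine and other gland epithelium, was lower on average in HuR. The controls ran from 13.90 over a median of 14.93 to 15.23, and the HuR samples from 12.98 over a median of 14.57 to 14.87. All 6 HuR arrays lay below the control median, and only HuR replicate 2 lay below the lowest control, again control replicate 2. The means of 14.82 ± 0.49 and 14.37 ± 0.70 (SD, n = 6 each) differed by -0.45 (SE 0.321), with an interval from -1.15 to 0.25. The exact two-sided permutation p was 0.245 and the limma adjusted p 0.924. In the 10 arrays without replicate 2 the means were 15.01 ± 0.20 and 14.65 ± 0.18 (SD, n = 5 each). They then differed by -0.36 (SE 0.114), 1.28-fold lower in HuR, with an exact permutation p of 0.0238 and a limma adjusted p of 0.638. Without HuR replicate 2 alone the difference was -0.174, and without control replicate 2 alone -0.635.

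The gastric-type markers were low in every sample. Muc5ac, the secreted mucin of stomach surface cells and of most PanIN, ran from 3.93 over a median of 4.00 to 4.11 in the controls and from 3.85 over a median of 3.96 to 3.98 in HuR. All 6 HuR arrays lay below the control median and 2 lay below every control, with a difference of -0.07 (SE 0.0407) and, by exact permutation, p = 0.0693. Cldn18, a claudin of stomach and lung tight junctions that appears in PanIN, ran from 3.93 to 4.10 and from 3.79 to 4.07, which is a difference of -0.05 (SE 0.0526) at p = 0.387 by exact permutation. Tff1, the trefoil peptide secreted with Muc5ac, ran from 3.89 to 4.42 and from 4.00 to 4.34, which is a difference of -0.02 (SE 0.0949) at p = 0.803 by exact permutation. None of the 12 arrays placed any of these 3 genes above the median row, and the 95% intervals of their differences reached up to 0.02 for Muc5ac, 0.07 for Cldn18 and 0.18 for Tff1. In the 10 arrays without replicate 2 the differences were -0.06, -0.03 and -0.05 in the same order.

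Cldn4, a claudin of duct tight junctions that is abundant in PanIN and carcinoma, was also low. It ran from 3.97 over a median of 4.33 to 4.74 in the controls and from 4.24 over a median of 4.38 to 4.50 in HuR. The HuR arrays all lay inside the control range, and the means differed by 0.04 (SE 0.123). The interval ran from -0.23 to 0.31, and exact permutation gave p = 0.762. It lay above the median row in 2 control arrays and in 0 HuR arrays, and without both replicate 2 arrays it differed by 0.11 (SE 0.115).

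Prom1, the membrane protein CD133 of duct and centroacinar cell apical membranes, lay above the range of the background rows on every array and overlapped between the genotypes. It ran from 8.97 over a median of 9.52 to 9.65 in the controls and from 8.81 over a median of 9.53 to 9.80 in HuR. Of the HuR arrays, 1 lay above and 1 below every control, the others lay inside the control range, and the means differed by -0.04 (SE 0.171). The interval ran from -0.41 to 0.33, and exact permutation gave p = 0.846. The low array among the controls was replicate 2, whereas in HuR it was replicate 4, and without both replicate 2 arrays the difference was -0.15 (SE 0.175).

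Dclk1, a kinase of neurons and of tuft cells, which appear in metaplastic pancreas, ran from 4.86 over a median of 4.95 to 5.05 in the controls and from 4.79 over a median of 4.84 to 5.17 in HuR. The lowest control lay above 4 of 6 HuR arrays, while HuR replicate 2 was the highest of all 12. The means differed by -0.04 (SE 0.0663), with an interval from -0.19 to 0.10, and exact permutation gave p = 0.522. In the 10 arrays without replicate 2 they differed by -0.08 (SE 0.045), at p = 0.0635 by exact permutation. These levels lie within the range of the background rows.

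**Figure D2:**
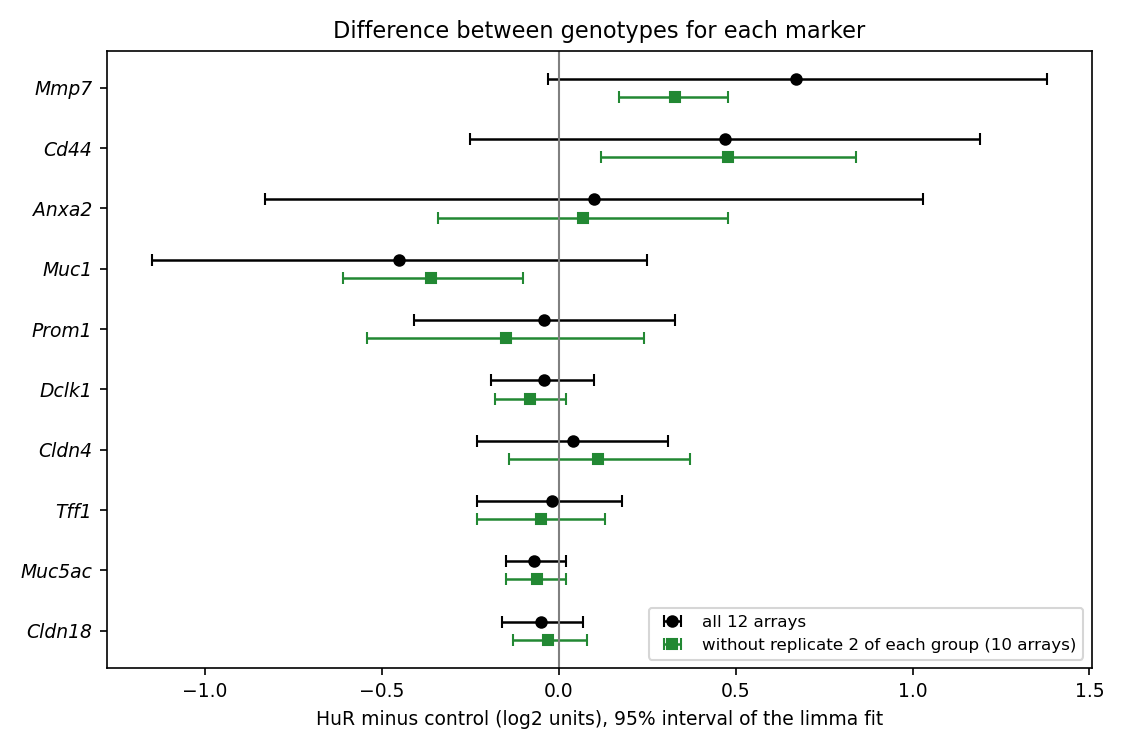
HuR minus control in log2 units for each marker, with the 95% interval of the limma fit, over all 12 arrays (black circles) and over the 10 arrays left without replicate 2 of each group (green squares). Over 12 arrays every interval holds 0, and over 10 arrays those of Mmp7 (0.17 to 0.48), Cd44 (0.12 to 0.84) and Muc1 (-0.61 to -0.10) do not.

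Over all 10 markers, 4 had a higher and 6 a lower mean in HuR, where 47.9% of all genes had a higher one, and their median difference was -0.033, beside -0.003 over all genes. At a limma adjusted p under 0.05, 0 of 10 markers and 0% of all genes were called, and at an unadjusted p under 0.05 it was 0 of 10 markers and 5.5% of all genes. Without both replicate 2 arrays the unadjusted count was 3 of 10 markers, namely Mmp7, Cd44 and Muc1, beside 6.55% of all genes, and again 0 markers and 0% of genes were called after adjustment. The adjusted p of the markers ran from 0.905 to 0.991 over 12 arrays.

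The spread over the 12 arrays exceeded that of the median gene for 7 of the 10 markers, and it was widest for Anxa2, Mmp7, Cd44 and Muc1. Their SD over the 12 arrays was 0.76, 0.67, 0.64 and 0.62 in the same order, larger than in 98.6%, 98.3%, 98.1% and 97.9% of all genes. These ranks and those that follow are over genes of every level, low rows included, and were not matched for level. In the 10 arrays without replicate 2 the SD was 0.30 for Anxa2, 0.20 for Mmp7, 0.36 for Cd44 and 0.26 for Muc1, larger than in 91.6%, 76.5%, 95.3% and 87.7% of genes. Over 12 arrays Prom1, Cldn4 and Tff1 had an SD larger than in 89.1%, 75.8% and 58.7% of genes, while Dclk1 stood at 33.3%, and Cldn18 and Muc5ac, at SDs of 0.08 and 0.06, at 18.8% and 8.76%.

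**Figure D3:**
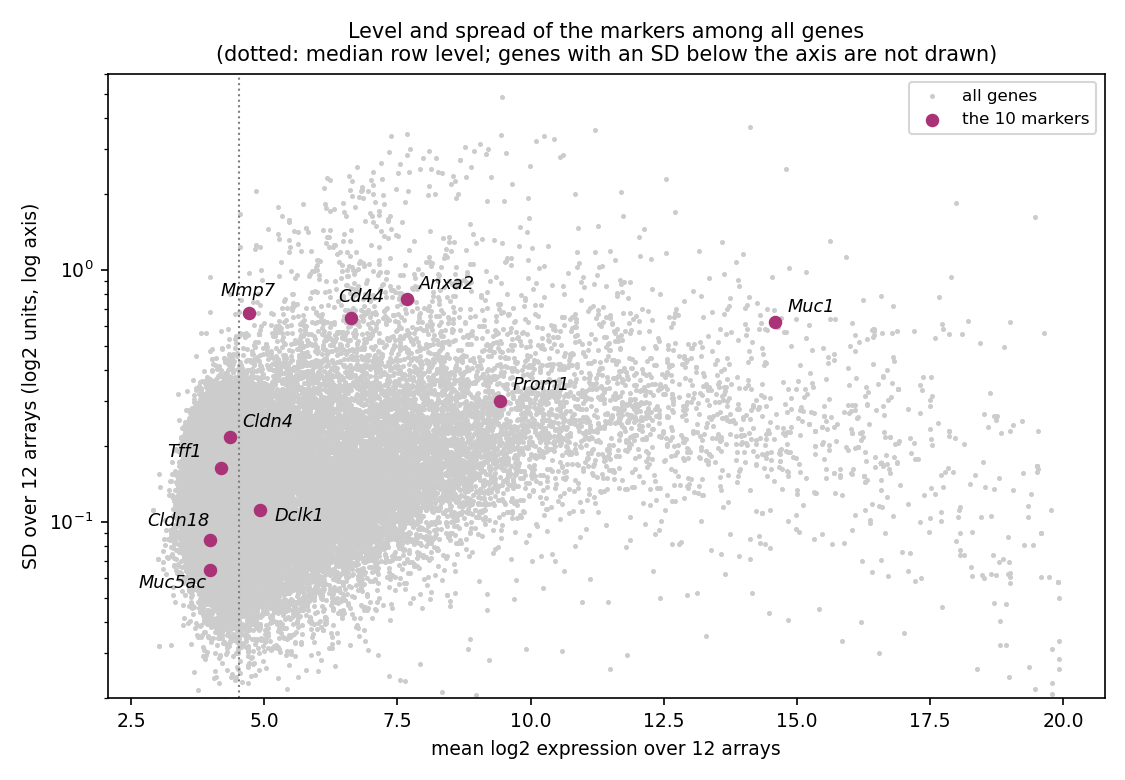
Mean log2 expression over 12 arrays against the SD over 12 arrays (log axis from 0.02) for all genes in grey and the 10 markers in purple, with the median row level dotted. Mmp7, Cd44, Anxa2 and Muc1 have the widest spread of the 10 markers, and Muc5ac and Cldn18 lie low in level and spread.

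Other genes of metaplasia were counted from lists chosen by their function. Of 14 genes of gastric-type epithelium, 9 were low, among them Gkn1, Gkn2, Muc6 and Psca, and Tff2, a trefoil peptide, stood at the end of the scale in all 12 arrays and could not be compared. Of the other 13, 6 were higher and 7 lower in HuR, and 9 and 4 after another scaling of the arrays. At an unadjusted p under 0.05, 1 was higher and 1 lower, where 2.87% of all genes were higher and 2.63% lower. These counts were 3 and 1 after quantile normalization and 0 and 1 without both replicate 2 arrays. The sulfotransferase gene Sult1c2 was at 8.25 ± 0.48 against 7.29 ± 0.69 (SD, n = 6 each), 1.95-fold lower in HuR, and below every control in 5 of 6 arrays. The annexin gene Anxa10, a low row, differed by 0.20 (SE 0.0745), or by 0.17 (SE 0.0848) without both replicate 2 arrays. Both had a limma adjusted p of 0.878.

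Regulators described for acinar-to-ductal metaplasia, such as the duct factor Sox9, the Krüppel-like factors, Notch receptors and EGF receptor ligands, showed small differences. Of 19 measured, 11 were higher and 8 lower (9 and 10 after quantile normalization), the median difference was 0.02, and 0 had an unadjusted p under 0.05. The smallest p belonged to Klf5, an epithelial transcription factor, at 5.24 ± 0.10 against 5.12 ± 0.18 (SD, n = 6 each), with a limma adjusted p of 0.92. The next was the EGF receptor ligand gene Ereg, a low row, with a difference of -0.05 (SE 0.0391).

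Of 13 duct genes, 7 were higher and 6 lower (6 and 7 after quantile normalization), with 2 higher and 0 lower at an unadjusted p under 0.05, where 2.87% of all genes were higher and 2.63% lower. After quantile normalization 2 were higher and 2 lower at that p, and without both replicate 2 arrays 2 and 1. Epcam, an epithelial adhesion molecule, was at 7.92 ± 0.16 against 8.25 ± 0.22 (SD, n = 6 each), and Ambp, a secreted protease inhibitor precursor, at 6.67 ± 0.12 against 7.33 ± 0.64. In 5 of 6 HuR arrays each lay above every control, and both had a limma adjusted p of 0.878. Ambp differed by 0.65 over 12 arrays and by 0.38 without both replicate 2 arrays, and HuR replicate 2 stood at 8.52. Epcam and Ambp were named for the smallest p, and other duct genes, named after their values were seen, went both ways. Krt19 differed by -0.28 (SE 0.165), Krt7 by -0.17 (SE 0.0844) and Cftr by -0.11 (SE 0.0732). Krt8 differed by 0.25 (SE 0.117) and Cd24a by 0.49 (SE 0.225).

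Among 46 genes counted as relatives of the markers, 20 were higher and 26 lower. The list held other mucins, claudins, matrix proteases, annexins, trefoil peptides and doublecortin-like kinases, with Prom2 and S100a10. At an unadjusted p under 0.05, 0 were higher and 3 lower, where 2.87% of all genes were higher and 2.63% lower. Cldn10, a claudin of ion-transporting epithelium, was at 7.57 ± 0.30 against 7.17 ± 0.11 (SD, n = 6 each), 1.31-fold lower. Tff3, the trefoil peptide of the intestine and a low row, differed by -0.25 (SE 0.0876). The third, the membrane mucin gene Muc4, falls outside the rule for named genes and is named after its values were seen, with a difference of -0.35 (SE 0.16). Control replicate 2 stood at 5.70 for Muc4, and without both replicate 2 arrays the difference was -0.19 (SE 0.11), no longer under an unadjusted p of 0.05. Their limma adjusted p was 0.878 for Cldn10 and Tff3 and 0.904 for Muc4.

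Genes typical of tuft cells were on both sides of the median row. Of 14 measured, 8 were low, among them Pou2f3, Gfi1b and Il25, and 6 lay above it, among them the ion channel gene Trpm5, at 5.02 ± 0.12 against 4.94 ± 0.04 (SD, n = 6 each), and Avil, which encodes advillin, at 5.03 in both genotypes. The levels of Trpm5 and Avil lie within the range of the background rows. Of the 14, 6 were higher and 8 lower in HuR (7 and 7 after another scaling). At an unadjusted p under 0.05, 2 were higher, where 2.87% of all genes were. The 2 were Hpgds, a prostaglandin D synthase gene that macrophages and mast cells also express, at 5.89 ± 0.12 against 6.29 ± 0.26 (SD, n = 6 each), and the succinate receptor gene Sucnr1, a low row, with a difference of 0.66 (SE 0.239). In 6 of 6 HuR arrays Hpgds, which had the smallest p of its list, lay above every control, as did 0.166% of all genes. Both had a limma adjusted p of 0.878. Of 7 nerve and glia genes, 5 were low, and Sox10 and Tubb3, those with the smallest p, differed by 0.06 (SE 0.0543) and 0.05 (SE 0.0695).

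Several marker lists of other cell types moved with the replicate 2 arrays, in which Cd44, Anxa2 and Muc1 stood out, and in part with the genotype. Mmp7 stood out only in HuR replicate 2, and was at 4.37 in control replicate 2. In whole tissue, fewer cells of a type and less RNA per cell cannot be told apart. The mean of 12 macrophage genes ran from 6.80 to 8.43 in the controls and from 7.33 to 9.65 in HuR, with replicate 2 highest in each group. All 12 were higher in HuR, 3 of them at an unadjusted p under 0.05, where 2.87% of all genes were higher at that p. Mpeg1 differed by 1.29 (SE 0.307) and the protease gene Ctss by 1.71 (SE 0.545). The mean of 10 lymphocyte genes ran from 4.91 to 6.04 and from 5.07 to 6.16, with 9 higher, 5 of them at an unadjusted p under 0.05. After median centring 10 were higher, 3 of them at that p. Ptprc, the leukocyte antigen CD45, differed by 1.28 (SE 0.496), and Cd52 by 0.57 (SE 0.233). In the 10 arrays without replicate 2, 12 macrophage and 10 lymphocyte genes were higher, and 6 and 4 of them passed an unadjusted p of 0.05. Of all genes, 6.55% passed it there in either direction. The part of macrophages and lymphocytes in the Cd44 and Mmp7 values was not tested.

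The mean of 11 fibroblast and stellate cell genes was 8.28 in control replicate 2 and 9.10 in HuR replicate 2, against at most 7.88 and 7.89 in the other arrays of the same groups. Of these genes 7 were higher and 4 lower in HuR (5 and 6 after quantile normalization), and Postn and Lum, matrix genes, differed by 0.49 (SE 0.484) and 0.49 (SE 0.514), or by 0.08 and 0.03 without both replicate 2 arrays. All 8 mesothelial genes were lower in HuR, 0 at an unadjusted p under 0.05 over 12 arrays and 6 over the 10 arrays. Of all genes, 5.5% and 6.55% passed that p in either direction. The mesothelial mean was 8.77 and 8.32 in the replicate 2 arrays against at most 7.78 and 7.46 in the others. Msln, or mesothelin, differed by -0.47 (SE 0.23), and Lrrn4 by -0.74 (SE 0.467). Anxa2 was highest in the same 2 arrays, and the part of fibroblasts and mesothelium in its value was not tested.

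All 10 adipocyte genes were higher in HuR, with list means from 6.46 to 8.70 in the controls and from 7.11 to 10.002 in HuR, with replicate 2 highest in each group. At an unadjusted p under 0.05 there were 3 of them over 12 arrays and 9 without both replicate 2 arrays. Of all genes, 5.5% and 6.55% passed that p in either direction. Pparg differed by 0.44 (SE 0.161) and Car3 by 2.64 (SE 1.02). All 10 islet genes were lower, 2 of them at an unadjusted p under 0.05, where 2.63% of all genes were lower at that p. The list means ran from 8.02 to 10.27 and from 7.97 to 8.78. The 10.27 was control replicate 2, and the other controls reached at most 9.42. The median difference was -0.54, or -0.34 without both replicate 2 arrays. Ptprn2 differed by -0.78 (SE 0.171). Pdx1, whose promoter drives Cre here, differed by -0.26 (SE 0.0929), or by -0.16 (SE 0.0817) without both replicate 2 arrays. Its means of 5.21 and 4.95 lie within the range of the background rows. Of 9 acinar genes, 3 stood at the end of the scale and the other 6 were lower (5 without both replicate 2 arrays), with the acinar secretory factor gene Bhlha15 at -0.64 (SE 0.264) and Ctrc at -0.54 (SE 0.265). The acinar mean was lowest in the replicate 2 arrays, at 12.91 in the controls and 12.77 in HuR, where Muc1 was lowest too. Whether the acinar share of the tissue set the Muc1 level was not tested. Of 9 intestinal genes, 8 were low, with Vil1 at -0.11 (SE 0.0596) and Reg4 at -0.07 (SE 0.0549), and of 6 endothelial genes 5 were higher (3 after quantile normalization), with Pecam1 at 0.14 (SE 0.112) and Tie1 at 0.05 (SE 0.0409).

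**Figure D4:**
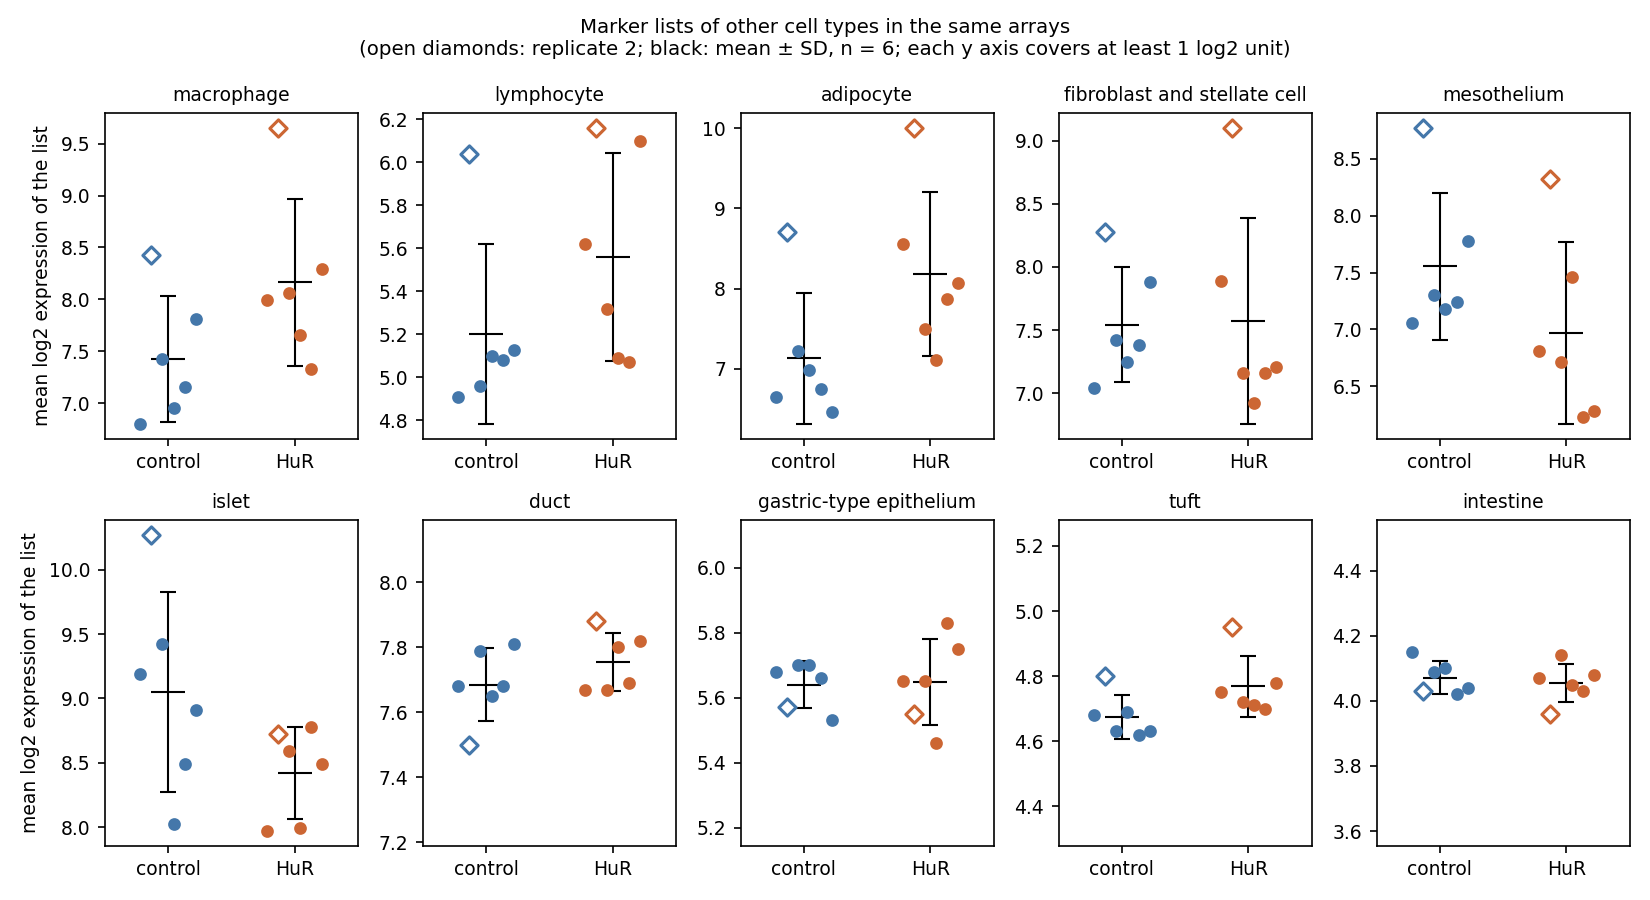
Mean log2 expression of 10 marker lists on each array, control in blue and HuR in orange, with replicate 2 as an open diamond and the mean ± SD (n = 6) in black. Replicate 2 is the highest array of both groups for macrophage, lymphocyte, adipocyte, fibroblast, mesothelial and tuft genes. The duct, gastric-type, tuft and intestinal lists stay within a narrow range, and most genes of the last 3 are low rows.

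The genes most like each marker were found by Pearson correlation over the 12 arrays after the group means were subtracted, among 12027 genes above the median row, as a description in which all values share the same arrays. For Cd44 these were the tubulin genes Tuba1c (r = 0.984) and Tuba1a (r = 0.976). For Anxa2 they were the mast cell protease gene Mcpt4 and the podoplanin gene Pdpn, a gene of mesothelium and lymphatic vessels, both at r = 0.987. For Prom1 they were Pkhd1 (r = 0.948), which encodes fibrocystin of duct cell cilia, and Cdk5rap3 (r = 0.925). For Dclk1 they were the elastin gene Eln (r = 0.973) and Nin (r = 0.958), and for Muc1 the TGF-beta inhibitor gene Smad7 (r = 0.963) and Mpnd (r = 0.956). Over the 10 arrays without replicate 2 the r of Prom1 with Pkhd1 and Cdk5rap3 was 0.947 and 0.897, of Cd44 with Tuba1c and Tuba1a 0.931 and 0.879, and of Anxa2 with Pdpn and Mcpt4 0.922 and 0.895. It was lower for Dclk1, at 0.878 with Eln and 0.799 with Nin, and for Muc1, at 0.737 with Smad7 and 0.713 with Mpnd. For Mmp7 the most alike were Ndc1 (r = 0.972) and Cmbl (r = 0.969), whose r was 0.406 and -0.268 without both arrays.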

How the data were processed

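RNA of 12 pancreas samples was hybridised as labelled cDNA to 1 array each. The authors deposited log2 values made with RMA, per the labels. Affymetrix Expression Console 1.4 is named in the submitters' processing notes, as is Transcriptome Analysis Console 3.1, while RMA settings and the build are not given here. RMA normalizes between arrays, so a shift common to most genes would be removed.

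Of 72688 rows, 6732 control rows were left out. The platform annotation gave 1 symbol for 30604 rows, several for 2146, left unnamed, and none for 33206. Of the rows with 1 symbol, 22818 matched RefSeq by gene identifier. The row with the highest mean was kept per gene, which left 30142 genes. Samples were grouped by their titles.

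The genotypes were compared by limma 3.58.1 (lmFit, eBayes; R 4.3.3) on all rows, two-sided, with p-values adjusted over all genes by Benjamini-Hochberg. The fit was checked on simulated data whose genes varied independently, so the check does not cover arrays that shift many genes together. Exact permutation tests used all 924 assignments, or 252 for 5 against 5. The markers, the lists and the 2 arrays left out were chosen with earlier results of these data known. Named genes are the markers, Elavl1, the 2 genes of smallest p in each list and the 2 genes most like each marker above the median row, without predicted genes, clones, small RNAs, receptor segments and genes with the same value on 3 or more arrays. Alternatives were the replicate number as a block, other scalings, filters and variance settings, and leaving out arrays.

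The replicate numbers were not taken to pair the samples, since nothing in the labels says so and not every pair deviated together.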

Additional observations from a re-analysis of the deposited data

Results flagged for a closer look

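A group was flagged when 1 array lay far from the other 5 by Dixon's ratio at its 95% critical value. Of 106 groups of 6 arrays examined (53 named genes in each genotype), 13 were flagged, each for a replicate 2 array. The rate of 1 in 20 for independent groups is no reference for this count. All groups share the same arrays, the genes most like the markers were selected through them, and other genes were named for their smallest p.

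In HuR replicate 2, Mmp7 stood highest at 6.77, Anxa2 highest at 9.33 and Muc1 lowest at 12.98. In control replicate 2, Cd44 stood highest at 7.58, Anxa2 highest at 9.06, just past the critical value, and Muc1 lowest at 13.90. Among the genes most like the markers, which the same arrays helped to select, HuR replicate 2 was lowest for Smad7 at 4.73 and Mpnd at 6.76 and highest for Ndc1 at 6.15, Cmbl at 7.43 and Pdpn at 7.87, and control replicate 2 was highest for Mcpt4 at 6.49. The leukocyte gene Ptprc was highest in control replicate 2, at 8.39.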

How the results depend on the processing

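Over 20 alternatives limma called 0 of all genes at an adjusted p under 0.05. At an unadjusted p under 0.05 the count of markers, 0 over 12 arrays, was 2 with the replicate number as a block (replicate block: Muc1 and Cd44), 3 without both replicate 2 arrays and from 0 to 1 with single arrays left out. In the first 2 the cause was not tested. The deviations of same-numbered arrays correlated at -0.108 to 0.654, with 3 of 6 controls and 2 of 6 HuR arrays nearest to their own number. Mmp7 (0.328 to 0.757), Cd44 (0.243 to 0.709), Muc1 (-0.635 to -0.174), Muc5ac, Cldn18 and Dclk1 kept their direction in every alternative in which they were tested. Differences near 0 changed sign: Anxa2 at -0.005 with array weights and from -0.22 to 0.39 with single arrays left out, and, likewise with single arrays left out, Cldn4 from -0.032 to 0.124, Prom1 (-0.152 without both replicate 2 arrays) from -0.136 to 0.079 and Tff1 from -0.088 to 0.018. Muc5ac, Cldn4, Cldn18 and Tff1 had no value in the test limited to rows above the median.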
